A study of Homo sapiens with 6 samples.

Results

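Mitochondrial ribosomal protein (MRP) genes are the nuclear genes for the protein subunits of the mitoribosome. The genes described here are the protein-coding rows named MRPL or MRPS followed by a number, with a mean of at least 1 FPKM (fragments scaled by transcript length and by library size) over the 6 libraries. All 78 rows with such a name passed this level, out of 32985 genes in the file and 11725 genes at or above it. By the assignments in current mitoribosome structures, 51 of them encode proteins of the large subunit and 26 of the small subunit. The remaining gene, MRPS36, has a product now known as an adaptor of the 2-oxoglutarate dehydrogenase complex rather than a ribosomal protein. Of the 77 subunit genes, 45 encode proteins with a bacterial counterpart and 32 encode proteins that the current nomenclature classes as specific to mitochondria. The genes lie on 21 chromosomes, with at most 8 on any of them.

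The mitoribosome sits in the mitochondrial matrix and translates only the few mRNAs encoded by mitochondrial DNA, which specify core subunits of the respiratory chain and of ATP synthase. All of its proteins are translated in the cytosol and imported, while its RNAs are made inside the organelle. Assembly therefore needs many nuclear genes to be expressed together.

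RNA was taken from 8505C cells, an established line of human anaplastic thyroid cancer (ATC). In 3 libraries, with the genotype label WT, the cells had received a control siRNA (siCtrl), and in 3 libraries, with the genotype label NUF2 knockdown, an siRNA against NUF2 (siNUF2), with 24 h as the labelled time. NUF2 is a kinetochore protein, and the study asked what its loss does to ATC cells, protein synthesis included. The labels number the libraries 1 to 3 in each group but do not say whether a number marks a culture, a day or, for siNUF2, a separate siRNA. The study's methods list 1 siRNA sequence for NUF2. All cells come from 1 line, and since no source says that the libraries are separate cultures, p-values measure only the spread between these libraries, which may be technical.

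Libraries held from 61257859 to 69755291 counts, and no library was a copy of another. NUF2 itself stood at 14.8, 14.5 and 12.2 FPKM in siCtrl 1 to 3 and at 1.53, 2.05 and 1.56 FPKM in siNUF2 1 to 3. The groups did not overlap, and NUF2 fell by 2.99 on the log2 scale (SE 0.17, edgeR adjusted p = 0.00051). The keratins KRT8 and KRT18 and the mesenchymal marker VIM were abundant in every library, at 72.0 to 99.2, 136.5 to 205.0 and 452 to 521 FPKM. Of the thyroid genes, NKX2-1 was present at 14.6 to 21.5 FPKM, PAX8 was at or under 0.774 FPKM, and TG, the thyroglobulin gene, was at or under 0.0143 FPKM. Of the markers of other cells, PTPRC, CD3E and PECAM1 were at or under 0.518 FPKM, and CD68 was at 3.48 to 6.82 FPKM.

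MRP genes were well expressed in control cells. Their mean levels over the 6 libraries had a median of 20.3 FPKM, against 6.002 FPKM over all genes tested, and spanned 28.3-fold. The highest was MRPL12, a protein of the flexible stalk that recruits translation factors, with 97.1 ± 11.7 FPKM in siCtrl (SD, n = 3). It was followed by the large-subunit genes MRPL51 (77.9 ± 2.43 FPKM), MRPL41 (69.2 ± 6.52 FPKM), MRPL47 (67.9 ± 5.02 FPKM) and MRPL3 (65.3 ± 5.39 FPKM). MRPL12 was above MRPL51 in each siCtrl library, while the siCtrl means of MRPL41, MRPL47 and MRPL3 lay within 1 SD of one another.

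The lowest was MRPL42, with 3.24 ± 0.0839 FPKM in siCtrl (SD, n = 3). Next above it came MRPL46 (4.13 ± 0.475 FPKM), MRPS33 (4.27 ± 0.448 FPKM), MRPS14 (5.27 ± 0.506 FPKM) and MRPS5 (6.59 ± 0.0474 FPKM). No MRP gene lay near the minimum of 1 FPKM, so the level filter removed none. The counts behind these values ran from 205 to 15621 reads per gene and library. FPKM depends on the transcript length the authors used, and it is the scale on which these genes are compared with each other.

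**Figure D1:**
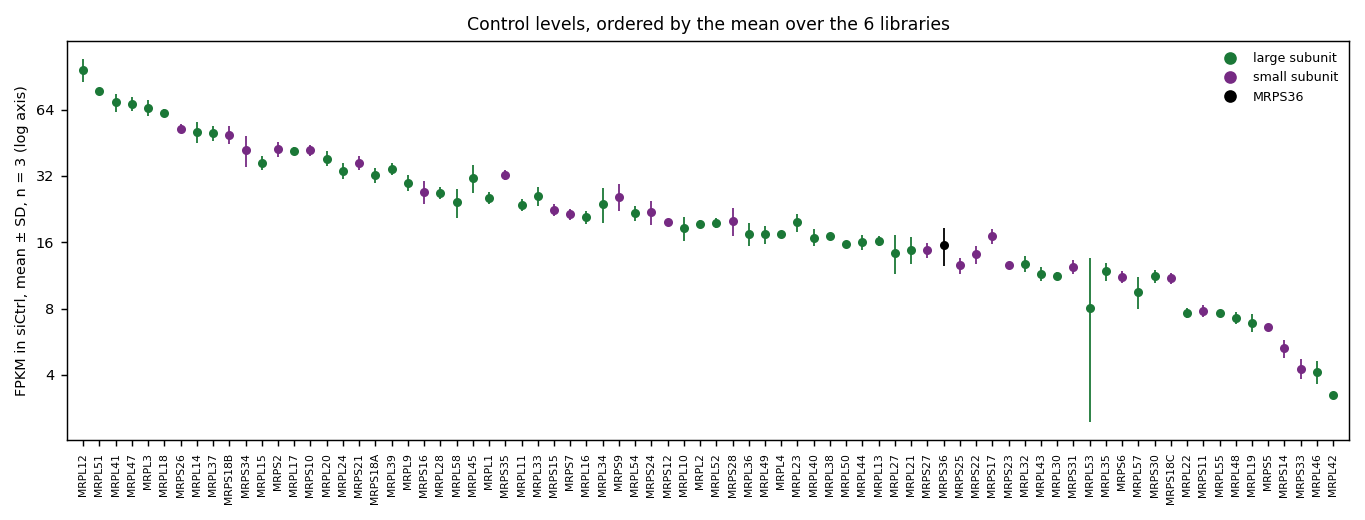
Control level of each of the 78 MRP genes. The vertical axis is FPKM in siCtrl on a log scale (points: mean; bars: SD; n = 3), and the horizontal axis orders the genes by their mean over the 6 libraries, from MRPL12 to MRPL42; MRPL53 has the widest bar.

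The 3 libraries of a group held MRP genes at closely similar levels. The median coefficient of variation was 7.82% in siCtrl and 7.59% in siNUF2, against 11.2% and 12.0% over all genes tested. MRPL53 varied most, with 69.5% in siCtrl, followed by MRPL27 with 20.2%. MRP genes also have a higher median FPKM than all genes tested, and what part that has in the lower variation was not tested. The share of the transcriptome held by MRP genes differed between groups by less than the spread of the libraries. Their FPKM summed to 2042, 1880 and 1972 in siCtrl 1 to 3 and to 2057, 1921 and 1970 in siNUF2 1 to 3. The library numbered 2 was the lowest of its group in both groups, and the groups overlapped. In counts, the share was 0.510% ± 0.0187 in siCtrl and 0.516% ± 0.0167 in siNUF2 (SD, n = 3).

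After NUF2 knockdown no MRP gene had group means more than 2-fold apart in FPKM. Such genes were rare among all genes tested too, 204 of 11725, so this does not set the MRP genes apart. The ratio of the siNUF2 mean to the siCtrl mean ran from 0.547 for MRPS17 to 1.87 for MRPL53. With edgeR's quasi-likelihood test, whose calls are genes with a Benjamini-Hochberg adjusted p under 0.05 over all genes tested, 2 of the 78 MRP genes (2.56%) were called, against 3.99% of all genes tested. Both were lower in siNUF2 (2.46% of all genes tested were called lower) and both encode small-subunit proteins, MRPS17 and MRPS35. None was called higher (1.53% of all genes tested), although by an unadjusted p under 0.05 there were 11 higher and 7 lower. Those shares were 14.1% and 8.97%, beside 8.6% and 9.56% of all genes tested, and the unadjusted 18 in all made 23.1% beside 18.2%. DESeq2 called 6 MRP genes (7.69%, against 8.29% of all genes tested), 3 of them higher.

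Libraries with the same replicate number deviated together, so the comparison was also fitted with the replicate number as a block. With the replicate block, edgeR called 14 MRP genes (17.9%, against 14.5% of all genes tested). Of these, 9 rose (11.5%, against 6.64%) and 5 fell (6.41%, against 7.91%). DESeq2 with the block called 19 (24.4%, against 20.1%). The member shares lay on either side of the background by a few percentage points, with no test of the difference.

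More MRP genes had values above 0 than below it. Without any threshold, 47 MRP genes had a log2 fold change above 0 and 31 below 0. Of the 11725 genes tested, 5991 were above 0 and 5734 below 0. The MRP median was 0.04, against 0.01 over all genes tested. Within the pairs of libraries 1, 2 and 3 the MRP medians were 0.06, 0.07 and 0.03, and those of all genes tested were at most 0.02. In 31 genes (39.7%, against 26.5% of all genes tested) siNUF2 was higher in 3 of 3 pairs, and in 16 (20.5%, against 25.3%) it was lower in 3 of 3. All siNUF2 libraries were above all siCtrl libraries in 18 genes (23.1%, against 12.1%) and below them in 11 (14.1%, against 12.0%). MRP genes have a higher median FPKM than all genes tested, and what part that has in these shares was not tested.

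**Figure D2:**
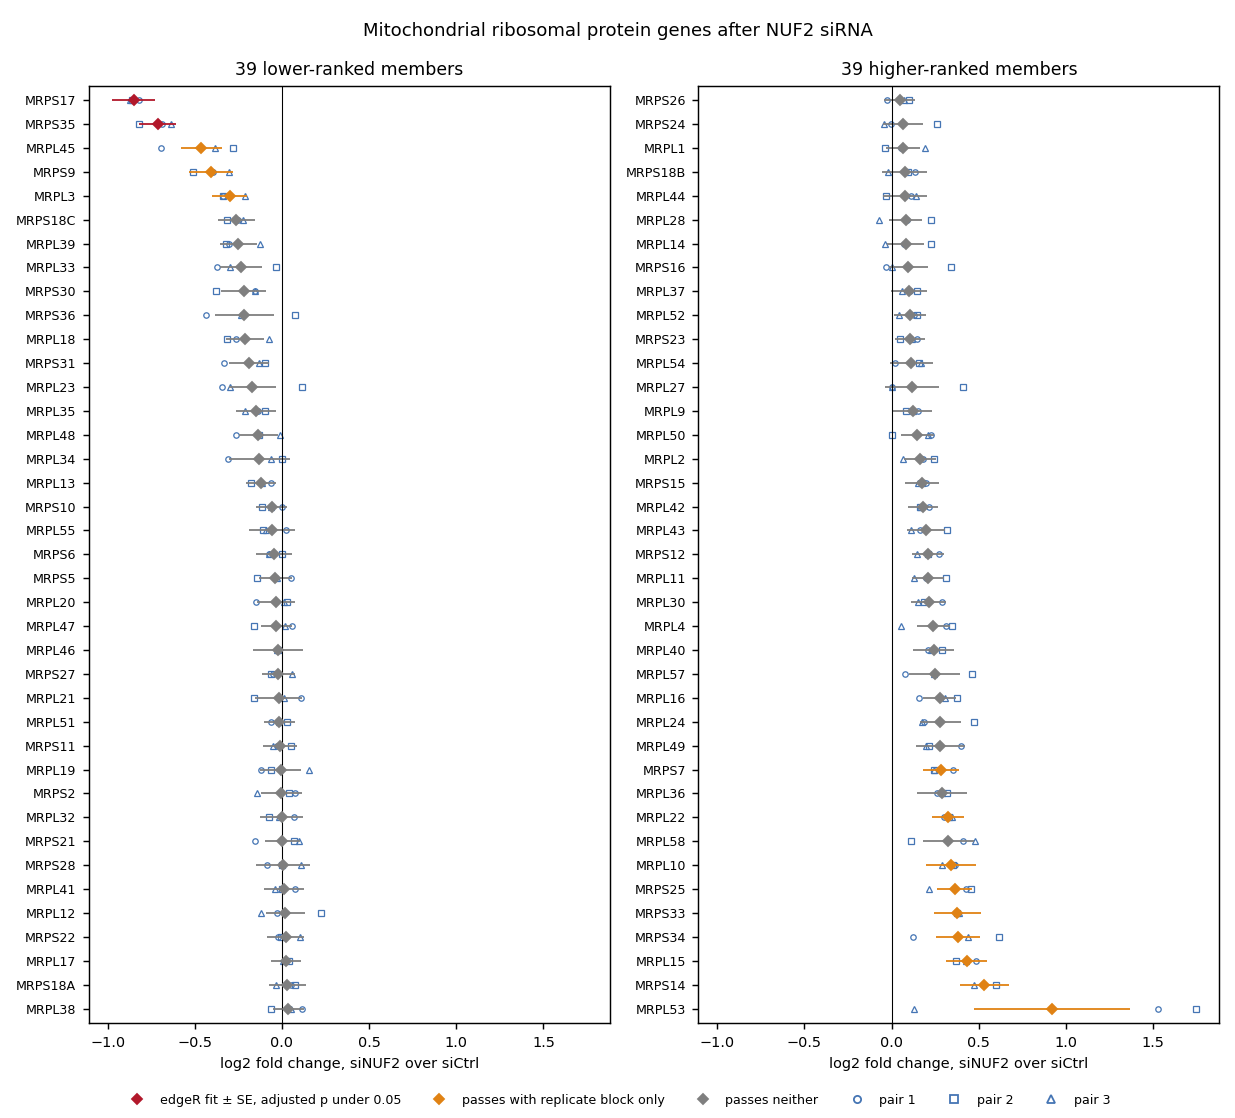
Change of each MRP gene after NUF2 siRNA. The horizontal axis is the log2 fold change of siNUF2 over siCtrl; diamonds are the edgeR estimate ± SE over 3 against 3 libraries, open symbols the 3 pairs of libraries with the same number. MRPS17 and MRPS35 lie furthest left, and MRPL53 lies furthest right with its pairs far apart.

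By subunit, the medians were 0.07 for the large subunit (32 of 51 genes above 0) and 0.01 for the small subunit (15 of 26 above 0). No large-subunit gene was called by edgeR, with 6 higher (11.8%, against 8.6% of all genes tested) and 3 lower (5.88%, against 9.56%) by an unadjusted p under 0.05, and 2 called by DESeq2 (3.92%, against 8.29%). With the replicate block, 4 large-subunit genes rose (7.84%, against 6.64%) and 2 fell (3.92%, against 7.91%), and 5 small-subunit genes rose (19.2%) and 3 fell (11.5%). The difference between the subunits was not tested. Genes with a bacterial counterpart had a median of 0.02 and those specific to mitochondria 0.07. Each subunit and each class held genes of both signs.

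MRPS17 had the largest fall. It encodes a small-subunit protein with a bacterial counterpart, and lies on chromosome 7 from 55951877 to 55956500 (plus strand, GRCh38). Its levels were 17.1, 18.3 and 15.6 FPKM in siCtrl and 9.67, 9.83 and 8.45 FPKM in siNUF2. Every siNUF2 library was well below every siCtrl library, and the pairs were alike. MRPS17 fell by 0.85 on the log2 scale (SE 0.12, edgeR adjusted p = 0.0112, and 0.00235 with the replicate block). In the file the whole of MRPS17, 4624 bp, lies inside the span of NIPSNAP2 on the same strand, and NIPSNAP2 had a log2 fold change of -0.17 (SE 0.12, edgeR adjusted p = 0.509).

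MRPS35 was the other gene called. It encodes a small-subunit protein without a bacterial counterpart and lies on chromosome 12 from 27710822 to 27756295 (plus strand). Its levels were 34.2, 31.1 and 31.7 FPKM in siCtrl and 21.2, 17.2 and 20.1 FPKM in siNUF2. The groups were again far apart, and MRPS35 fell by 0.71 on the log2 scale (SE 0.11, edgeR adjusted p = 0.0127, and 0.00202 with the block). Without siCtrl 1 the adjusted p was 0.0523 for MRPS17 and 0.0574 for MRPS35, and without siNUF2 1 it was 0.0514 for MRPS17, while the log2 fold changes stayed between -0.91 and -0.63 whichever library was left out.

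Of the edgeR fits, a further 3 genes fell in that with the replicate block, MRPL45, MRPS9 and MRPL3. MRPL45, the large-subunit protein near the exit of the peptide tunnel that ties the ribosome to the inner membrane, stood at 36.6, 27.9 and 29.9 FPKM in siCtrl and at 22.5, 22.4 and 22.6 FPKM in siNUF2. The siNUF2 libraries were almost equal and below all of siCtrl. Its log2 fold change was -0.46 (SE 0.12, edgeR adjusted p = 0.0816, and 0.0228 with the block), and DESeq2 without a block also called it lower (adjusted p = 0.0195). In the file, 2 pseudogenes named after MRPL45 are listed with 2571 counts over the 6 libraries, against 21454 for MRPL45, so its value is uncertain where reads could be split. The pseudogene MRPL45P2 had 427, 393 and 357 counts in siCtrl and 498, 486 and 400 in siNUF2. MRPL45 had 5022, 3845 and 3783 counts in siCtrl and 2973, 3065 and 2766 in siNUF2. How reads were split between them was not tested.

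MRPS9, a small-subunit protein with a bacterial counterpart, stood at 26.2, 29.1 and 22.1 FPKM in siCtrl and at 19.8, 19.9 and 17.6 FPKM in siNUF2. MRPL3, one of the most abundant members, stood at 71.4, 62.9 and 61.4 FPKM in siCtrl and at 56.1, 48.5 and 52.3 FPKM in siNUF2. In both genes the groups did not overlap, by a gap smaller than the SD within siCtrl (3.51 and 5.39 FPKM). The log2 fold changes were -0.41 for MRPS9 (edgeR adjusted p = 0.137, and 0.0208 with the block) and -0.30 for MRPL3 (0.164, and 0.0285 with the block).

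Among the genes that rose with the block, MRPL15 had the smallest adjusted p. This large-subunit protein has a bacterial counterpart, and its gene stood at 39.4, 33.9 and 36.7 FPKM in siCtrl and at 54.9, 42.6 and 48.7 FPKM in siNUF2. Each siNUF2 library was above each siCtrl library, and the order of libraries 1, 3 and 2 was the same in both groups. Its log2 fold change was 0.43 (SE 0.12, edgeR adjusted p = 0.0936, and 0.00861 with the block), and DESeq2 without a block also called it (adjusted p = 0.0285).

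MRPS14, a small-subunit protein with a bacterial counterpart and one of the least abundant members, stood at 4.81, 5.18 and 5.81 FPKM in siCtrl and at 6.91, 7.66 and 7.99 FPKM in siNUF2. The groups did not overlap, and the log2 fold change was 0.53 (SE 0.14, edgeR adjusted p = 0.091, and 0.025 with the block; DESeq2 without a block 0.0219). MRPS14 shares 927 bp with CACYBP, which lies on the opposite strand and is more abundant, and CACYBP fell by 0.48 on the log2 scale (SE 0.11, edgeR adjusted p = 0.0491). The strand setting of the counts is not given in the sources used here, so reads of the shared stretch cannot be assigned to either gene.

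MRPL53 had the largest positive log2 fold change and the least certain one. It encodes a large-subunit protein found only in mitochondria, and its levels were 6.10, 3.64 and 14.3 FPKM in siCtrl and 17.5, 12.1 and 15.5 FPKM in siNUF2. The library siCtrl 3 stood with the siNUF2 libraries and the groups overlapped. The pair differences were 1.53, 1.74 and 0.13 on the log2 scale, and the log2 fold change was 0.92 (SE 0.45, edgeR adjusted p = 0.335), or 1.13 (SE 0.31, adjusted p = 0.04998) with the block. Without siCtrl 3 it was 1.64 (adjusted p = 0.0562), and without siCtrl 2 it was 0.57 (adjusted p = 0.522). The gene is 706 bp long in the file, of which 702 bp are shared with CCDC142 on the same strand (log2 fold change -0.47, edgeR adjusted p = 0.439) and 706 bp with AC005041 on the opposite strand (-0.50, adjusted p = 0.542).

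The other 6 genes that rose with the block had log2 fold changes between 0.28 and 0.38. MRPS34, a small-subunit protein found only in mitochondria, stood at 49.4, 37.7 and 38.4 FPKM in siCtrl and at 53.6, 56.2 and 51.5 FPKM in siNUF2 (log2 fold change 0.38, edgeR adjusted p = 0.159, and 0.0446 with the block). MRPS25, of the same class, stood at 12.8, 11.4 and 13.5 FPKM in siCtrl and at 17.1, 15.3 and 15.4 FPKM in siNUF2 (0.36, adjusted p = 0.102, and 0.0231 with the block; DESeq2 without a block 0.0486). MRPS33, also of this class, went from a mean of 4.27 ± 0.448 to 5.47 ± 0.552 FPKM (SD, n = 3; 0.38, adjusted p = 0.191, and 0.0427 with the block). In these 3 genes every siNUF2 library was above every siCtrl library. MRPS34 shares 341 bp with EME2, and MRPS25 shares 890 bp with NR2C2, each on the opposite strand. EME2 had a log2 fold change of 0.05 (edgeR adjusted p = 0.976) and NR2C2 of -0.17 (0.482). The limit given for MRPS14 holds for these stretches too.

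MRPL10, which anchors the stalk on the large subunit, overlapped between groups, at 20.1, 19.7 and 15.8 FPKM in siCtrl and 25.7, 24.5 and 19.1 FPKM in siNUF2, but rose in each pair (0.34, edgeR adjusted p = 0.265, and 0.0217 with the block). MRPL22, which lines the peptide tunnel, stood at 7.87, 7.84 and 7.21 FPKM in siCtrl and 9.63, 9.61 and 9.06 FPKM in siNUF2, without overlap (0.32, adjusted p = 0.109, and 0.0275 with the block). MRPS7, a head protein of the small subunit, went from 21.4 ± 1.17 to 25.7 ± 2.77 FPKM (SD, n = 3; 0.28, adjusted p = 0.203, and 0.0381 with the block). MRPS7 shares 688 bp with GGA3 and 149 bp with MIF4GD, both on the opposite strand, with the same limit. With the block, MRPL15, MRPS17 and MRPS35 were the 3 MRP genes called whichever pair of libraries was left out.

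**Figure D3:**
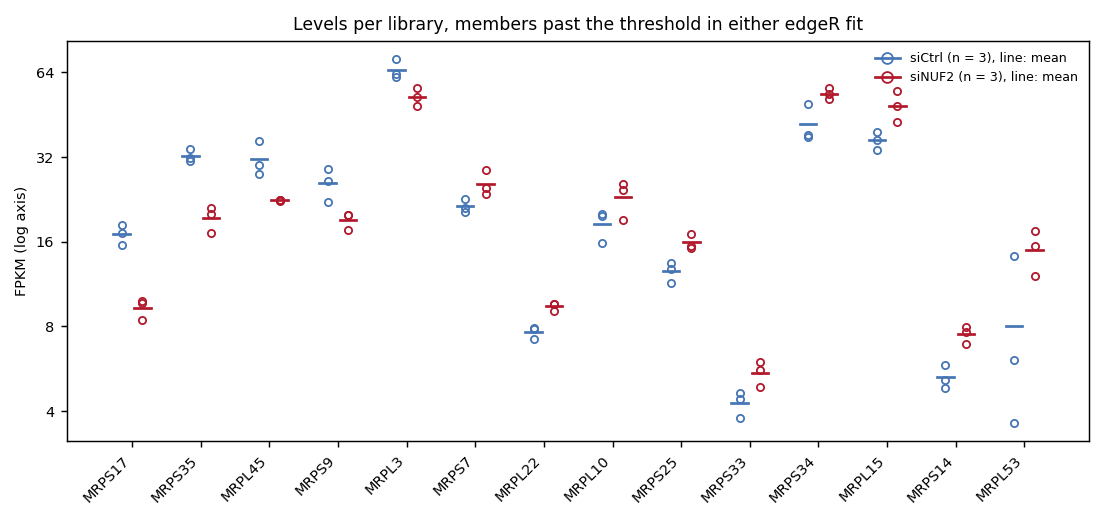
FPKM of the 14 MRP genes called by edgeR with the replicate block, on a log axis, ordered by log2 fold change. Circles are the 3 siCtrl (blue) and 3 siNUF2 (red) libraries and lines their means. MRPS17 and MRPS35 show the widest gaps between groups, and the siCtrl circles of MRPL53 are spread widest.

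The 3 paralogs of the S18 family take different places in the mitoribosome, MRPS18B and MRPS18C in the small subunit and MRPS18A in the large. Current names keep only MRPS18C as the counterpart of bacterial S18 and class the other two as specific to mitochondria. MRPS18A was at 32.2 ± 2.49 FPKM in siCtrl and 32.5 ± 2.07 FPKM in siNUF2, and MRPS18B at 49.4 ± 4.61 and 51.3 ± 7.70 FPKM (SD, n = 3). Both differed by less than the spread of the libraries, and the sign of each difference turned when single libraries were left out. MRPS18C, the least abundant, was at 11.1, 10.4 and 11.6 FPKM in siCtrl and 9.22, 8.12 and 9.86 FPKM in siNUF2. The groups did not overlap, with a log2 fold change of -0.26 (SE 0.11, edgeR adjusted p = 0.248, and 0.0516 with the block).

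Of the 5 most abundant genes, MRPL3 was called with the block, whereas MRPL12, MRPL51, MRPL41 and MRPL47 had log2 fold changes of 0.02, -0.01, 0.01 and -0.03, each less than its SE of 0.09 to 0.12. MRPS36, the member that is no ribosomal protein, was at 17.4, 12.0 and 17.2 FPKM in siCtrl and at 12.8, 12.3 and 14.4 FPKM in siNUF2, with overlapping groups (log2 fold change -0.22, SE 0.17, edgeR adjusted p = 0.579).

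An siRNA can act like a microRNA on other mRNAs that carry a match to its seed, positions 2 to 8 of the antisense strand, above all where an A follows opposite the first base. For the NUF2 siRNA this word is TATGGAA. It was searched on the sense strand of the coding sequence and 3′ UTR of the canonical GENCODE release 44 transcripts, as a description with no test. It was in the coding sequence or 3′ UTR of 15 of 78 MRP mRNAs (19.2%), against 27.2% of 10085 other genes tested. MRP mRNAs have short 3′ UTRs, with a median of 464.5 bases against 1340, and the word was in 10.3% of these 3′ UTRs against 15.1%.

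The 4 MRP genes with the largest falls were among these 15, a link seen after their values were known. Their sites are shown because they sit in the members the comparison turns on, each 29 bases long with the word in capitals.
MRPS17, 3′ UTR, exon 3 of 3, chr7:55955216-55955244, plus strand: catgtttatgtTATGGAAaaagaaatttt
MRPS35, coding sequence, exon 8 of 8, chr12:27755292-27755320, plus strand: gctgagaaaaaTATGGAAataaataaaga
MRPL45, 3′ UTR, exon 8 of 8, chr17:38323168-38323196, plus strand: catttgcatttTATGGAAaaatataaatc
MRPL45, coding sequence, exon 7 of 8, chr17:38322220-38322248, plus strand: tgacaaaccccTATGGAAgctggagaatg
MRPS9, coding sequence across the junction of exons 5 and 6, chr2:105080058-105089007, plus strand: tgcatgatgtaTATGGAAtgttactcaat

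An A followed the word in MRPS17, MRPS35 and the 3′ UTR site of MRPL45, but not in MRPS9. The same 8 bases, TATGGAAA, were in 7 MRP mRNAs in all, and the other 4 were called in neither edgeR fit. MRPL35, MRPS27, MRPS16 and MRPL11 had log2 fold changes of -0.15, -0.02, 0.10 and 0.21, each with an edgeR adjusted p of at least 0.280. In MRPL11 every siNUF2 library was above every siCtrl library, and MRPL35 was lower in siNUF2 in each pair. Sites of 2 of them are shown for contrast with MRPS17 and MRPS35.
MRPL11, 3′ UTR, exon 5 of 5, chr11:66435118-66435146, minus strand: cactgagaaaaTATGGAAagcatagataa
MRPL35, coding sequence, exon 4 of 4, chr2:86210488-86210516, plus strand: taagaaaaaatTATGGAAaaagacacctg

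Over the MRP genes, the median log2 fold change was -0.15 for the 7 mRNAs with TATGGAAA and 0.06 for the 71 without. Among other genes tested it was -0.12 for 1243 with it and 0.02 for 8842 without. For TATGGAA in the 3′ UTR alone the MRP genes did not follow the other genes in sign, with medians of 0.10 for the 8 with the word and 0.04 for the 70 without, beside -0.11 and 0.02 among others. For the word in the coding sequence the signs were alike, with medians of -0.15 for the 9 MRP genes with it, 7 of them below 0, and 0.07 for the 69 without, beside -0.08 and 0.02 among others. MRPL15, which rose with the block, holds the word in its 3′ UTR, and MRPL3, which fell with the block, holds it in neither region. Whether the siRNA acted on any of these mRNAs directly was not tested, and effects of NUF2 loss and of the siRNA's own sequence cannot be told apart with 1 siRNA.

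**Figure D4:**
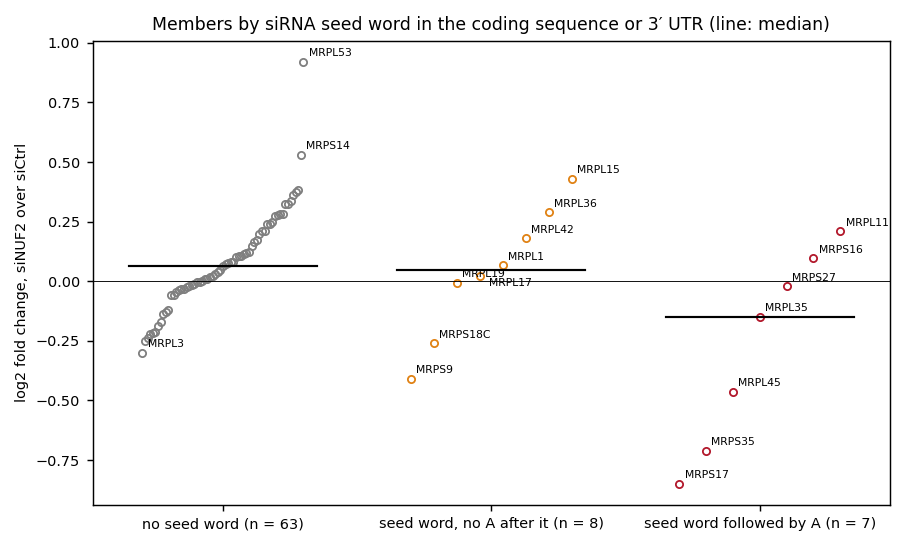
Log2 fold change (siNUF2 over siCtrl, vertical axis) of the 78 MRP genes by the siRNA seed word in the coding sequence or 3′ UTR. Circles are genes and lines medians: 63 genes without the word, 8 with it but no A after it in any site, and 7 with an A after it. MRPS17, MRPS35 and MRPL45 sit lowest among the 7, and MRPL11 and MRPS16 of the same 7 lie above 0.

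MRP promoters shared sequence words that the choice of genes did not use. RefSeq promoter windows (GRCh38.p14, 250 bases before to 50 after the first listed start) were matched for 69 of the 78 genes and searched on both strands. The ETS-type word CCGGAAG, bound by factors such as GABPA, was in 29 (42.0%), against 21.3% of 8598 genes tested and 10.7% of all 27305 promoters. The YY1-type word AAGATGGCG was in 13 (18.8%), against 4.47% and 1.85%. The NRF1-type words GCGCATGC or GCGCACGC were in 11 (15.9%), against 12.1% and 6.45%. At least 1 of these 3 kinds was in 42 (60.9%), against 33.5% and 17.2%.

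Neither these shares nor those of other core words were tested against the background. CCAAT was in 20 MRP promoters (29.0%, against 37.5% of genes tested and 35.7% of all promoters), the E-box CACGTG in 6 (8.70%, against 10.8% and 7.43%) and TATAAA in 2 (2.90%, against 5.33% and 12.0%). The median GC content was 60.3%, against 65.7% in genes tested.

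Most YY1-type words lay just after the start. Of 14 occurrences, 10 began after the start, all on the gene's own strand, at bases 7 to 36. The place of the word in promoters of other genes was not counted, so this place is not shown to be particular to MRP genes. The windows of 4 genes show it just after the start, with the word in capitals.
MRPS10, chr6:42217834-42217862, minus strand: cgggaccggcAAGATGGCGgcgcggacag
MRPS18A, chr6:43687764-43687792, minus strand: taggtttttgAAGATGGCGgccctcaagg
MRPS18B, chr6:30617853-30617881, plus strand: ggcgtacgtcAAGATGGCGgcgtctgtat
MRPL42, chr12:93467512-93467540, plus strand: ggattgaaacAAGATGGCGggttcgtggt

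ETS-type words lay mostly before or at the start, with 33 of 39 occurrences within the last 100 bases before it or after it. The 100 bases before the start of MRPS34, which rose with the block, hold 3 ETS-type words on the opposite strand, and those of MRPL17, with log2 fold change 0.02, hold NRF1-type words, in capitals.
MRPS34, chr16:1773135-1773234, minus strand: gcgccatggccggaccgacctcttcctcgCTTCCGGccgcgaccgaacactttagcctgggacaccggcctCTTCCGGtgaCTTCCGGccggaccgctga
MRPL17, chr11:6683341-6683440, minus strand: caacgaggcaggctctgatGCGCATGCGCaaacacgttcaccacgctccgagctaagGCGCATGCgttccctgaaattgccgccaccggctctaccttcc

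MRP genes with and without these words had similar medians, which were not tested against each other. The median log2 fold change was 0.07 with and 0.05 without an NRF1-type word, 0.08 and 0.04 for the ETS-type word, and 0.06 and 0.06 for the YY1-type word. Among the factors themselves, NRF1, a transcription factor of nuclear genes for mitochondria, stood at 3.83, 4.36 and 3.84 FPKM in siCtrl and 2.72, 2.69 and 2.59 FPKM in siNUF2. The groups were apart, with a log2 fold change of -0.57 (SE 0.14, edgeR adjusted p = 0.0686, and 0.026 with the block). GABPA had 0.23 (adjusted p = 0.243) and YY1 0.18 (0.423).

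Starting next to another gene on the opposite strand was common among MRP genes. In the file, 26 of 78 (33.3%) had such a gene among those tested with its start within 1000 bp, against 16.7% of all genes tested. MRPS11 and MRPL46 are 2 members that start 64 bp apart, and both were level, with log2 fold changes of -0.01 and -0.02. Some other MRP genes start beside genes of the same organelle: MRPL43 beside TWNK, the mitochondrial DNA helicase, MRPS12 beside SARS2, a mitochondrial tRNA synthetase, MRPL47 beside NDUFB5 and MRPL36 beside NDUFS6, both of respiratory complex I. Others start beside genes of other kinds, such as MRPL51 beside NCAPD2, MRPL18 beside TCP1 and MRPL27 beside EME1. The share of mitochondrial partners was not counted. The starts come from the file's own coordinates.

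Other genes that serve mitochondrial translation were read from lists, and no share was tested against that of all genes tested. Of all genes tested, edgeR called 3.99%, and at its unadjusted p under 0.05 8.6% were higher and 9.56% lower. With the block, 6.64% rose and 7.91% fell. DESeq2 called 3.48% higher and 4.81% lower. Of the 5 mitoribosome subunits that carry other names, edgeR called none (1 higher, or 20%, at an unadjusted p under 0.05, none by DESeq2). Their median log2 fold change was 0.07. GADD45GIP1 of the large subunit had the highest value, at 49.8, 53.1 and 57.3 FPKM in siCtrl and 62.2, 62.3 and 67.2 FPKM in siNUF2 (0.28, adjusted p = 0.171, and 0.0343 with the block). DAP3 of the small subunit had the lowest, -0.13 (adjusted p = 0.541), or -0.08 without siCtrl 1.

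Of 25 assembly factors, edgeR called none, with 6 higher at an unadjusted p under 0.05 (24%, against 8.6% of all genes tested). DESeq2 called 2 higher (8%, against 3.48%), and in edgeR with the block 3 rose (12%, against 6.64%). These were MRM1, an rRNA methyltransferase (0.70, edgeR adjusted p = 0.129, and 0.0149 with the block), YBEY, an rRNA-processing protein (0.55, 0.0682 and 0.025), and RPUSD4, a pseudouridine synthase (0.40, 0.213 and 0.020). MRM1 stood at 7.66, 4.64 and 5.47 FPKM in siCtrl and 10.9, 8.69 and 8.89 FPKM in siNUF2. The list's median was 0.09, with 17 of 25 genes above 0, and its lowest value was -0.28 for GTPBP10, a GTPase of large-subunit assembly (adjusted p = 0.459), which was -0.16 without siCtrl 2, -0.18 without siNUF2 1 and -0.41 without siNUF2 3.

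Of 15 translation factors tested, edgeR called none, and DESeq2 none. At an edgeR unadjusted p under 0.05 there was 1 in each direction (6.67% each, against 8.6% higher and 9.56% lower). In all, 13 were above 0, with a median of 0.11. The initiation factor MTIF2 fell with the block (-0.31, edgeR adjusted p = 0.141, and 0.048 with the block), and the elongation factor TSFM had the highest value (0.40, adjusted p = 0.384), which was 0.19 without siCtrl 3 and 0.61 without siCtrl 1. Of 20 tRNA synthetases, edgeR called none, and DESeq2 none. At an edgeR unadjusted p under 0.05, 3 were higher (15%, against 8.6%) and 2 lower (10%, against 9.56%). TARS2 (0.54, edgeR adjusted p = 0.196, and 0.0197 with the block) and EARS2 (0.48, 0.201 and 0.0213) rose with the block. CARS2 fell with it (-0.35, 0.254 and 0.028). The 2 that rose made 10% (against 6.64%) and the 1 that fell 5% (against 7.91%). The lowest value was -0.39 for MARS2 (edgeR adjusted p = 0.249, and 0.093 with the block), and the median was 0.08.

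Of 13 genes for transcription and replication of mitochondrial DNA, edgeR called 1, as lower (7.69%, against 2.46% of all genes tested). TFAM, which packages mitochondrial DNA and starts its transcription, stood at 19.4, 19.9 and 17.8 FPKM in siCtrl and at 9.95, 8.04 and 9.04 FPKM in siNUF2. No library of one group came near the other, and TFAM fell by 1.06 on the log2 scale (SE 0.11, edgeR adjusted p = 0.00377). The median of this list was 0.10, and its highest value was 0.33 for TWNK (edgeR adjusted p = 0.275), or 0.18 without siNUF2 1. The 3′ UTR of TFAM holds the seed word at 2 places, both followed by A. In the other lists, the 3′ UTRs of EARS2 (log2 fold change 0.48) and MRRF (0.06) hold TATGGAAA too. So do the coding sequences of GTPBP10 (-0.28), GFM1 (0.11) and IARS2 (0.08). Whether the siRNA acted on any of these mRNAs was not tested.

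The mRNAs that the mitoribosome translates had values opposite in sign to that of TFAM. All 13 mitochondrially encoded mRNAs had a log2 fold change above 0, from 0.17 for MT-ND5 to 0.26 for MT-CYB with a median of 0.22. In 3 of 3 pairs 26.5% of all genes tested were higher, and so were all 13 of these mRNAs. They derive from long shared precursors, so they are not 13 independent measurements. EdgeR called none, and DESeq2 none, with 2 higher at an edgeR unadjusted p under 0.05 (15.4%, against 8.6%). With the block 5 rose (38.5%, against 6.64%), MT-ATP8, MT-CO3, MT-CYB, MT-ND1 and MT-ND2. MT-CYB stood at 3635, 3031 and 3002 FPKM in siCtrl and 3911, 3723 and 3798 FPKM in siNUF2, without overlap (adjusted p = 0.214, and 0.0311 with the block). Without siNUF2 1, MT-ND5 was at -0.04.

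The list of transcription factors of nuclear mitochondrial genes had 8 genes tested, TFAM among them, although TFAM acts on mitochondrial DNA. EdgeR called TFAM alone. DESeq2 called TFAM and NRF1 lower (25%, against 4.81% of all genes tested), with adjusted p = 0.00761 for NRF1. It called MYC higher (12.5%, against 3.48%), with adjusted p = 0.0251. The median of the 8, TFAM included, was -0.05. MYC, which drives ribosome production, had the highest value, at 10.6, 10.8 and 11.1 FPKM in siCtrl and 18.8, 11.9 and 15.7 FPKM in siNUF2 (0.53, SE 0.15, edgeR adjusted p = 0.115, and 0.0321 with the block). The groups did not overlap, and siNUF2 2 was close to the control level. Without siNUF2 2, MYC passed the edgeR threshold (0.69, adjusted p = 0.0349). The coactivators PPARGC1A and PPARGC1B were under the level filter, at means of 0.364 and 0.574 FPKM.

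**Figure D5:**
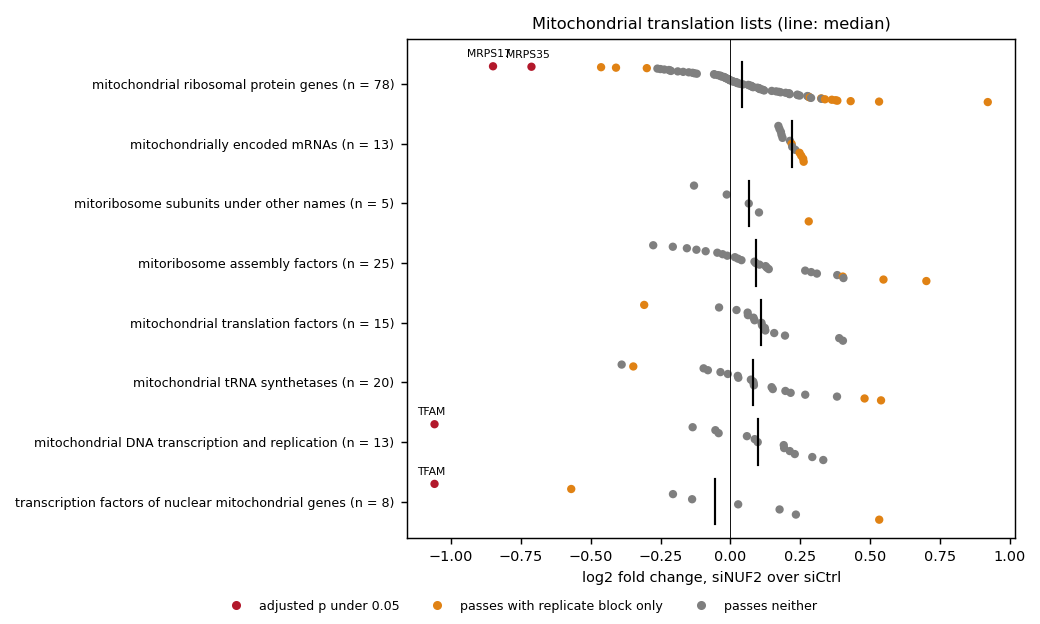
Log2 fold change (siNUF2 over siCtrl, horizontal axis) of the MRP genes and the 7 other lists of mitochondrial translation. Points are genes, coloured by the edgeR fit they pass, and vertical lines are medians. The 13 mitochondrially encoded mRNAs lie close together at 0.17 to 0.26, and TFAM, which stands in 2 lists, lies furthest left.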

How the data were processed

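Total RNA of 6 libraries of 8505C cells was selected for poly(A) and sequenced in paired ends. The submitters' processing notes name fastp, HISAT2, StringTie and GRCh38, without versions. The authors deposited FPKM for each gene (normalized for length and depth) next to raw counts as integers. The tool and strand setting behind the counts are not given in the sources used here. Per-sample columns left out numbered 0. No authors' comparison was used.

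Counts of 11725 genes (mean FPKM 1 or more) were tested with edgeR 4.0.16 (quasi-likelihood test, TMM, group only; R 4.3.3) and adjusted by Benjamini-Hochberg. DESeq2 1.42.0, limma 3.58.1 on log2(FPKM + 1), other filters, the replicate block and left-out libraries were alternatives. FPKM is used for levels, and pair differences are on log2 CPM with a prior count of 0.5. The scripts were tested on simulated data. Total counts were 61257859 to 69755291 per library, and intervals over libraries cover only these libraries.

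The pairing by replicate number was checked with correlations, across genes, of each library's departure from its group mean. They were 0.313 to 0.431 for equal numbers and -0.276 to -0.138 for unequal ones. Departures within a group cancel out, so the negative values follow from the positive ones and add no evidence of their own. The pairing is read only from the values for equal numbers, and no source says what a number shares. The common dispersion was 0.0452, and 0.0218 with the block.

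Genes named are those called in either edgeR fit, the 5 largest rises and falls, the 5 highest and lowest levels, the S18 paralogs, and in other lists the calls and extremes. Further genes were named for a sequence, an overlap or a call with the block, after their values were seen. The members and lists were chosen with earlier results of these data known. All 78 gene IDs were found in GENCODE release 44, where 54 had the file's start, end and strand; sequences by coordinates come from GRCh38. Pseudogenes named after a member are in the file for 17 members. They held 2560 counts against 11565 for MRPS31, and outside MRPS31 and MRPL45 at most 0.288% of the gene's counts.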

Additional observations from a re-analysis of the deposited data

How the results depend on the processing

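The main number of MRP genes called was 2. It was 14 with the replicate block, 6 with DESeq2 and 19 with the replicate block in DESeq2. Leaving out a single library gave 0 to 2 (0 without siCtrl 1, and MRPS35 alone without siNUF2 1). With the replicate block and without both libraries numbered 1, 2 or 3, alternatives added after seeing the data, it was 5, 13 and 6. The cause of these differences was not tested. Size factors of DESeq2, limma, no filter and a mean FPKM of at least 5 each called MRPS17 and MRPS35.

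The median log2 fold change of the MRP genes was 0.04. It was 0.0161 at a mean FPKM of at least 5, where 75 members were tested, and ran from 0.0118 to 0.0737 over the left-out libraries. The replicate block left it at 0.04. Over left-out libraries MRPS18A ran from -0.0333 to 0.0745, MRPS18B from -0.0348 to 0.173 and MT-ND5 from -0.0398 to 0.392, so these 3 changed sign. Of the values of single genes under the alternatives, 397 kept direction and side of the threshold, 73 passed it newly, 3 lost it and 4 changed sign. The replicate block changed no call of NUF2, MRPS17, MRPS35 or TFAM, and the calls it added are given beside each gene. Each member had at least 205 counts in every library, and with 3 libraries a group an exact permutation test of a single value cannot go below p = 0.1.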
